A study of Mus musculus with 4 samples.

Results

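Among the epithelial cells of the dissociated mouse lung tumors, 107 carried transcripts of alveolar type II (ATII) genes together with Hopx, a gene used to mark alveolar type I (ATI) cells. They were chosen from raw counts of unique molecular identifiers (UMIs, each standing for 1 captured transcript). A cell had to show at least 200 detected genes and at most 13.4% of its UMIs in mitochondrial genes. It also needed at least 3 UMIs over the epithelial genes Epcam, Cdh1, Krt8, Krt18 and Cldn18 and no UMI of the leukocyte gene Ptprc, which together form the epithelial gate. Within that gate it needed at least 1 Hopx UMI and at least 5 UMIs over Cxcl15, Slc34a2, Etv5 and Hc, which form the ATII threshold. These 107 co-expressing cells made up 10.0% of the 1067 epithelial-gated cells (95% interval 8.29 to 11.99) out of 20351 cells in all. The other epithelial-gated cells comprised 469 ATII-only cells past the ATII threshold with no Hopx UMI, 243 Hopx-only cells below it with at least 1, and 248 cells with neither.

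All tumors had been initiated by lentiviral Cre given into the trachea of mice aged 6 to 12 weeks and grew for 16 weeks. Every mouse, all of them female, carried Lkb1XTR/XTR, in which Cre inverts a gene trap that stops transcription of Lkb1 (gene symbol Stk11) and expresses GFP, so that GFP and loss of Lkb1 go together. The tdTomato allele is Cre-dependent and marks recombined cells. At Rosa26, the 2 Restored mice carried LSL-tdTomato together with FLPo-ERT2, a recombinase that cuts the trap out once tamoxifen is given, and the 2 Non-Restored mice carried LSL-tdTomato without FLPo-ERT2. By the sample labels all 4 mice were given tamoxifen, in 4 mg doses over 2 weeks, before viable cells were sorted and profiled. No source used here states the promoter that drove Cre in these mice.

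ATII cells are the cuboidal cells of the alveolus that make and recycle surfactant and serve as progenitors of the alveolar epithelium. ATI cells are thin, cover most of the gas exchange surface and arise from ATII cells through an intermediate, keratin-rich state after injury. HOPX is an atypical homeodomain protein of ATI cells, and cells with both ATII and ATI gene products have been described in lung development, injury and tumors.

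The counts of all mice formed 1 matrix of 31055 features and 58624795 UMIs, where the median cell carried 1960 UMIs from 857 genes. No file used here ties a cell to a mouse or to a library, so the matrix counts as 1 sample without replicates, Restored and Non-Restored were not compared, and no test was run. Differences between cells cannot be told apart from unequal contributions of the 4 mice. Barcodes shared between libraries could not be counted, since cells carry only a number, and 0 cells repeated another exactly. Levels are given in CPM, the summed UMIs of a gene or gene list over the cells of a group per 1e6 UMIs of that group. Intervals are exact 95% intervals (Poisson for CPM, Clopper-Pearson binomial for shares, conditional for log2 ratios of CPM) and cover counting error only. The groups were set by UMIs of the same cells, so the values below describe them.

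The rule genes were checked first. Hopx (ENSMUSG00000059325) lies on chromosome 5 of mm10 at positions 77086988 to 77115121 on the minus strand. Cxcl15, a chemokine of the lung epithelium, lies at 90794534 to 90803067 of the same chromosome, and Slc34a2, the phosphate transporter of ATII cells, at 53038081 to 53071664, both on the plus strand. Among co-expressing cells 63 had 1 Hopx UMI, 16 had 2, 8 had 3, 6 had 4 and 14 had 5 or more, with a highest count of 21. Just outside, 469 cells past the ATII threshold had 0. The ATII sum had a median of 36 UMIs (46 in ATII-only cells) and a highest value of 756. No co-expressing cell sat at 5 and 2 sat at 6, while 11 Hopx-positive cells sat just below the threshold at 4 and 11 at 3. On the epithelial sum 2 cells sat at the lower limit of 3 and 3 otherwise eligible cells were at 2. A further 10 cells met every criterion except that they carried a Ptprc UMI.

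The ATII threshold was usually met by several genes at once. Of the 4 ATII genes, 42 co-expressing cells had UMIs of all 4, 32 of 3, 25 of 2 and 8 of 1. Cxcl15 was detected in 101 and Slc34a2 in 103 of the 107 cells, at 5561 and 3337 CPM, against 6508 and 4247 CPM in ATII-only cells and 72.7 and 81.3 CPM in Hopx-only cells. Etv5, an ETS transcription factor, was at 175 CPM against 171 CPM in ATII-only cells. Hc, which encodes complement C5, was at 247 against 327 CPM. Hopx was at 279 CPM (247 to 314), well below the 1158 CPM of Hopx-only cells. These genes set the groups, so their levels describe the rule and support nothing further.

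Depth was set beside these values because a threshold on raw UMIs is met more easily by a deep cell. Co-expressing cells ranged from 1962 to 40755 UMIs, with a median of 5575 (4910 to 5966) and 1875 detected genes. ATII-only cells ranged from 623 to 46443 UMIs, with a median of 4747 (4508 to 5049) and 1646 genes. Hopx-only cells were the shallowest of the 3 groups, with a median of 2794 UMIs (2601 to 3250) and 1198 genes. The ranges overlapped, and the median co-expressing cell held 1.17 times the UMIs of the median ATII-only cell (1.03 to 1.26) and 2.00 times those of the median Hopx-only cell (1.76 to 2.14). A cell made of a median ATII-only cell and a median Hopx-only cell free of other lineages (defined below) would hold 7154 UMIs. That sum was reached by 37 of 107 co-expressing cells (34.6%, 25.6 to 44.4) and by 80 of 469 ATII-only cells (17.1%, 13.8 to 20.8), whereas 37 co-expressing cells lay under the ATII-only median. The mitochondrial share was similar, at a median of 4.88% against 5.07%.

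**Figure D1:**
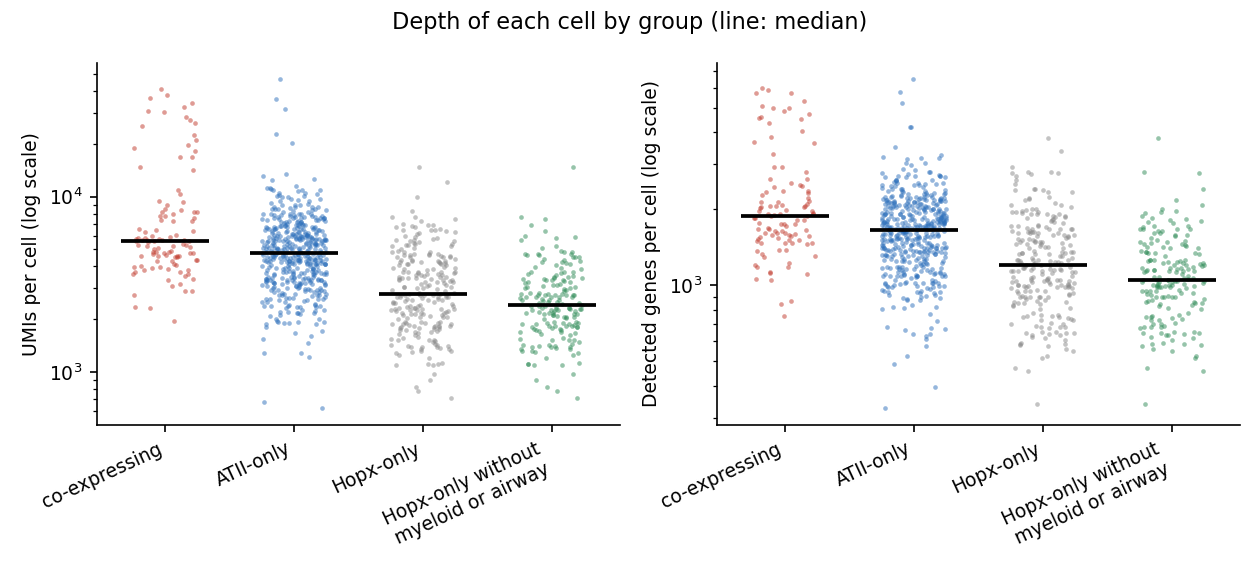
UMIs per cell (left) and detected genes per cell (right), both on log axes, for co-expressing, ATII-only and Hopx-only cells and for Hopx-only cells without myeloid or airway UMIs. Each point is 1 cell and each line a median (5575, 4747, 2794 and 2407 UMIs), and the co-expressing group has a separate upper band of cells above 15000 UMIs.

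Hopx detection was also set out by depth among all 576 cells past the ATII threshold. Below 3000 UMIs 7.06% of 85 cells had a Hopx UMI (2.63 to 14.7), between 3000 and 5000 UMIs 17.7% of 209 (12.8 to 23.6), between 5000 and 8000 UMIs 17.0% of 200 (12.1 to 22.9) and between 8000 and 15000 UMIs 20.3% of 59 (11.0 to 32.8). The 3 bands from 3000 to 15000 UMIs therefore overlapped in their intervals. Above 15000 UMIs the share was 78.3% of 23 cells (56.3 to 92.5). There the level of Hopx was also higher, at 183 CPM (151 to 219) over all 23 cells against 35.2 to 65.4 CPM in the other bands, so both the share and the level per UMI stood apart in the deep cells. When each cell was thinned at random to 2000 UMIs, 48 of 556 deep enough cells past the ATII threshold kept a Hopx UMI, or 8.63% (6.43 to 11.3), in place of 18.6% unthinned.

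**Figure D2:**
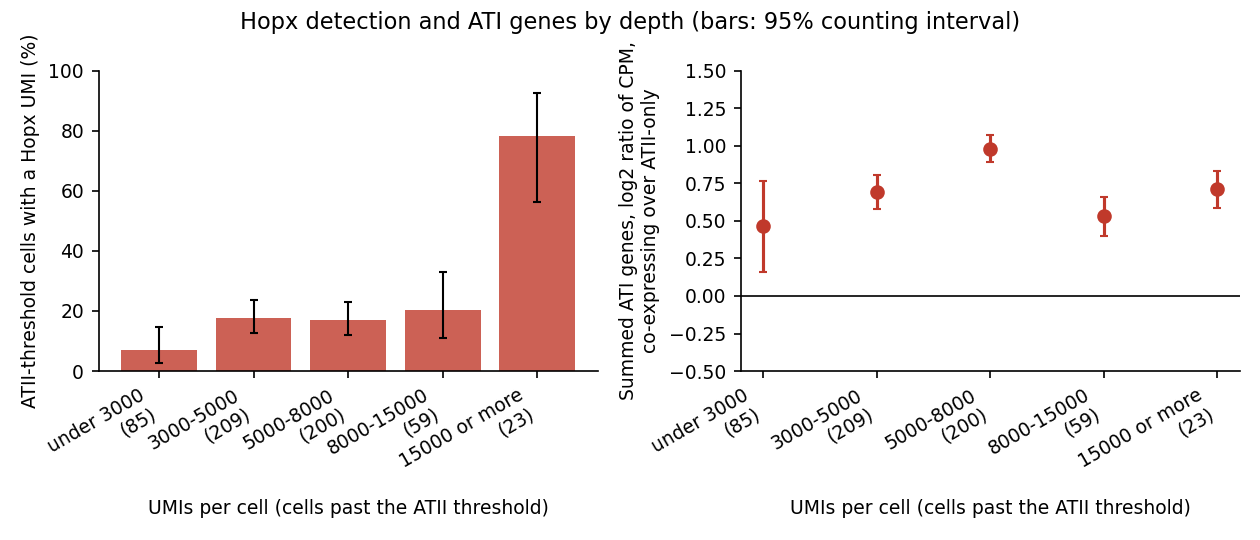
Cells past the ATII threshold by UMIs per cell, with the number of cells in brackets and 95% counting intervals. Left, the share with a Hopx UMI, 7.06% below 3000 UMIs and 78.3% above 15000. Right, the log2 ratio of summed ATI genes in co-expressing over ATII-only cells of the same band, which lay above 0 in all 5 bands (0.47 to 0.98).

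Free transcripts in the droplets give UMIs to cells that do not express a gene, so other lineages were used as a background for Hopx. B cells, gated on Cd79a, Cd79b and Ms4a1, had a Hopx UMI in 57 of 1827 cells, or 3.12% (2.37 to 4.02), at a median depth of 1478 UMIs and a level of 20.2 CPM. Alveolar macrophages had one in 6.50% of 2722 cells at a median depth of 5505 UMIs, close to that of co-expressing cells, and a level of 18.6 CPM. The cells past the ATII threshold had 18.6% at a median depth of 4889 UMIs and 78.1 CPM (69.1 to 88.0). After thinning to 2000 UMIs the shares were 3.68% in B cells, 2.79% in alveolar macrophages and 8.63% in cells past the ATII threshold. At equal depth Hopx detection in these epithelial cells thus exceeded that in B cells and alveolar macrophages beyond counting error. The 63 cells with a single Hopx UMI cannot be told apart one by one from that background. With at least 3 UMIs, the share was 4.86% of cells past the ATII threshold (3.25 to 6.95) and 0.220% of alveolar macrophages (0.0809 to 0.479). Other lineages had more Hopx. Endothelial cells had it in 8.84% (7.25% after thinning) and T cells in 10.5% (13.1% after thinning) at 63.3 and 71.7 CPM, and thinned neutrophils in 7.61%, so these were close to or above the 8.63% of cells past the ATII threshold. The ATII threshold was met in turn by 12 of 2722 alveolar macrophages and 5 of 1827 B cells.

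Doublets, droplets with 2 cells, were examined in the co-expressing cells and in the cells with 1 program. Scrublet, which compares each cell with simulated sums of cells, called 0 of 107 co-expressing cells (0 to 3.39%), 1 of 469 ATII-only cells and 2 of 243 Hopx-only cells. It was run on the joined matrix and called 181 of 20299 cells in all, or 0.892%. Callers of this kind are known to miss doublets of similar cells, such as those of 2 epithelial cells. UMIs of other lineages were the second measure. At least 3 UMIs of an 8-gene endothelial list were present in 3 of 107 co-expressing cells and 1 of 469 ATII-only cells, and 3 of 107 against 1 of 469 met the B cell gate. No co-expressing cell met the alveolar macrophage, neutrophil or T cell gate. Since the rule bars any Ptprc UMI, that 0 was partly set in advance and cannot measure doublets with leukocytes. In those gates 3, 1 and 4 cells had a Hopx UMI and at least 5 UMIs of the rule's ATII genes but failed another criterion. For the other myeloid list of 10 genes, 24 of 107 co-expressing cells had a UMI (22.4%, 14.9 to 31.5) against 66 of 469 ATII-only cells (14.1%, 11.1 to 17.6), and 2 and 5 had at least 3. Neutrophil UMIs were present in 22 of 107 (20.6%, 13.4 to 29.5) against 43 of 469 (9.17%, 6.71 to 12.2), and among cells of 3000 to 8000 UMIs in 12 of 71 (16.9%, 9.05 to 27.7) against 26 of 339 (7.67%, 5.07 to 11.0). Lymphoid UMIs were present in 23.4% against 14.1%, and in 12.7% against 15.3% in that band. Of these intervals, those for neutrophil UMIs at all depths did not overlap, while those in the band did. The part of doublets in the co-expression was not tested beyond these values.

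The deep cells stood apart and are described on their own. Above 15000 UMIs there were 18 co-expressing and 5 ATII-only cells. The 18 held 49.4% of all UMIs of the co-expressing group and 42.9% of its Hopx UMIs, at a median of 26771 UMIs and 4786 genes. Of these, 15 had at least 2 Hopx UMIs, 0 were called by Scrublet and 2 had at least 3 endothelial UMIs. Summed CPM weights such cells heavily, so the sums and medians of the main lists below are also given for cells of 3000 to 8000 UMIs, a depth band that held 71 co-expressing and 339 ATII-only cells at medians of 4857 and 4933 UMIs.

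The ATII genes outside the rule were slightly lower in co-expressing than in ATII-only cells. The 30 genes of the ATII list summed to 148911 CPM (148147 to 149677) in co-expressing and 178083 CPM (177562 to 178606) in ATII-only cells, a log2 ratio of -0.26 that was -0.28 in the depth band. In single cells the sum ranged from 3344 over a median of 152337 to 257643 CPM in co-expressing cells and from 2046 over 180818 to 362666 CPM in ATII-only cells. The 3344 CPM was that of 1 cell rich in Scgb1a1, described below. The 10th percentiles were 92080 CPM in co-expressing and 114347 CPM in ATII-only cells, so the groups overlapped widely. All 30 genes had a mean of at least 20 CPM over the co-expressing, ATII-only and Hopx-only groups, the limit for a gene to enter the counts below. With 10 CPM added to each level, 0 of the 30 were at least 2-fold higher or lower than in ATII-only cells, and the median log2 ratio was -0.20, beside 0.03 over all 5409 genes past the limit. Over those 5409 genes, 0.555% were at least 2-fold higher and 0.0924% at least 2-fold lower. In the depth band 2 of 29 ATII genes were at least 2-fold lower and the median was -0.25. After thinning with cells gated anew, without cells above the 98th percentile of genes and without cells holding any UMI of another lineage, 1 was lower in each case. The band and these settings compared 5449, 5307, 5270 and 5205 genes in all. After thinning, 503 genes were lower, and the numbers at the other settings are given with the processing below. The number of ATII list genes with a UMI was 23 in the median cell of either group.

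Surfactant genes were close to the ATII-only level. Sftpc, the surfactant protein made by ATII cells alone in the lung, was detected in 105 of 107 co-expressing cells at 95464 CPM against 115319 CPM in ATII-only cells, a log2 ratio of -0.27 (-0.28 to -0.26; -0.20 in the depth band). Sftpb had a log2 ratio of -0.21 (-0.19 in the band) and Sftpa1 of -0.23 (-0.61 in the band), while Sftpd, a collectin of the surfactant layer, was higher at 0.14 (0.09 to 0.20). Lamp3, a membrane protein of the lamellar bodies in which surfactant is stored, was at 585 against 744 CPM, and Abca3, the lipid transporter of the same organelle, at 446 against 507 CPM. In the band their log2 ratios were -0.43 and -0.33. Several genes of host defense and lipid handling were further below. Lyz2, which encodes lysozyme, was at 3560 CPM (3443 to 3680) against 5523 CPM, a log2 ratio of -0.63 that was -1.23 in the band of 3000 to 8000 UMIs. Lcn2, the iron-sequestering protein lipocalin 2, had a ratio of -0.07 over all cells and of -1.14 in the band, the largest shift between those settings among the 30 genes. Fasn, the fatty acid synthase, had -0.55 and Fabp5, a fatty acid binding protein, -0.62. Above 0 were Sftpd, the protease gene Ctsh (0.16) and the membrane adaptor gene Ank3 (0.23).

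ATI genes outside the rule were higher in co-expressing than in ATII-only cells almost throughout the list. Their sum was 6490.4 CPM (6332 to 6652) against 3713 CPM (3638 to 3789), a log2 ratio of 0.81 (0.76 to 0.85). Of the 30 genes listed, 26 passed the limit of 20 CPM. Of these 26, 11 were at least 2-fold higher than in ATII-only cells and 0 at least 2-fold lower, against a background of 0.555% and 0.0924%, and all 26 had a ratio above 0. Their median log2 ratio was 0.80 beside 0.03 over all genes. With no limit on low genes, the count was 11 of 30, with 28 above 0 and a median of 0.74. In the band of 3000 to 8000 UMIs 8 of 23 genes were at least 2-fold higher and the median was 0.81. The count was 5 of 25 without the cells above 15000 UMIs. It was 6 of 26 after thinning to 2000 UMIs and gating anew, where 34 co-expressing cells were left and 3 genes were at least 2-fold lower. Over all 5307 genes compared after thinning, 390 were at least 2-fold higher and 503 lower. The shares of 0.555% and 0.0924% hold for the main setting only, where 30 of 5409 genes were at least 2-fold higher. In the band, without the cells above 15000 UMIs and with no limit on low genes, 5449, 5368 and 15589 genes were compared. At each of these settings the number at least 2-fold higher over all genes stayed within a factor of 1.5 of that 30. The ratio of the sums lay between 0.47 and 0.98 within each of the 5 depth bands.

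Abundant surface genes of ATI cells differed by modest folds. Ager, the receptor RAGE on the ATI membrane, was at 1066 CPM (1003 to 1133) in co-expressing, 627 CPM (596 to 659) in ATII-only and 2435 CPM in Hopx-only cells, a log2 ratio to ATII-only cells of 0.77 (0.65 to 0.88) and of 0.95 in the depth band. An Ager UMI was found in 92.5% of co-expressing and 81.7% of ATII-only cells, or 78.3% and 62.0% after thinning, against 0.493% of B cells at their median depth of 1478 UMIs and 0.581% of thinned B cells. Aqp5, a water channel, had a log2 ratio of 0.45 (0.33 to 0.57) and Emp2, a tetraspan membrane protein, of 0.54 (0.37 to 0.71). Ager, Aqp5 and Emp2 were thus present in most ATII-only cells too.

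Larger ratios included genes detected in fewer ATII-only cells than Ager, Aqp5 and Emp2. Their shares there ran from 3.62% for Akap5 to 24.1% for Clic5, 34.3% for Lmo7 and 39.7% for S100a6. Akap5, a scaffold for protein kinase A, was at 65.4 CPM (50.3 to 83.5) from 64 UMIs in 25 cells, against 7.55 CPM in ATII-only cells, a log2 ratio of 3.11 (2.36 to 3.94). Clic5, an intracellular chloride channel protein of ATI cells, was at 188 against 64.0 CPM (1.55, 1.24 to 1.87). Lmo7, a LIM domain protein of cell junctions, was at 246 against 101 CPM (1.29, 1.03 to 1.55). Col4a3 and Col4a4, chains of basement membrane collagen IV, had log2 ratios of 1.49 and 1.69. After thinning, a Clic5 UMI was present in 27.4% of co-expressing and 12.9% of ATII-only cells, an Akap5 UMI in 12.3% and 2.67%, and a Lmo7 UMI in 30.2% and 16.9%. Thinned B cells had them in 2.91%, 0.775% and 2.71% of cells. Thinned alveolar macrophages had an Akap5 UMI in 2.44%, close to the ATII-only share. Sec14l3, a lipid-binding protein, had a ratio of 2.67 (2.01 to 3.38) from 67 UMIs, and S100a6, a calcium-binding protein of many cell types, one of 1.35. After thinning, S100a6 was found in 45.3% of co-expressing and 28.2% of ATII-only cells but also in 45.7% of B cells. Cav1, of the caveolae of ATI and endothelial cells, had 3.78 from 32 UMIs, 40.6% of them in 1 cell. Limch1 had a ratio of 1.72 over all cells and of -0.99 in the depth band, where it was the one ATI gene past the limit over all cells that turned below 0.

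Some ATI genes were near absent. Pdpn, which encodes the ATI surface protein podoplanin, had 7 UMIs in 6 co-expressing cells, at 7.15 CPM (2.87 to 14.7) against 3.18 CPM in ATII-only and 34.5 CPM in Hopx-only cells. Rtkn2 had 4 UMIs, and Igfbp2, a growth factor binding protein described in mature ATI cells, had 0, which with 3 UMIs as the floor allows up to 3.06 CPM, against 17.2 CPM in Hopx-only cells. Cyp2b10, the fourth of the ATI genes under the limit, also had 0 UMIs. The smallest ratios past the limit were those of Vegfa (0.23, -0.04 to 0.49) and Tspan8 (0.17, -0.11 to 0.45), whose intervals included 0.

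**Figure D3:**
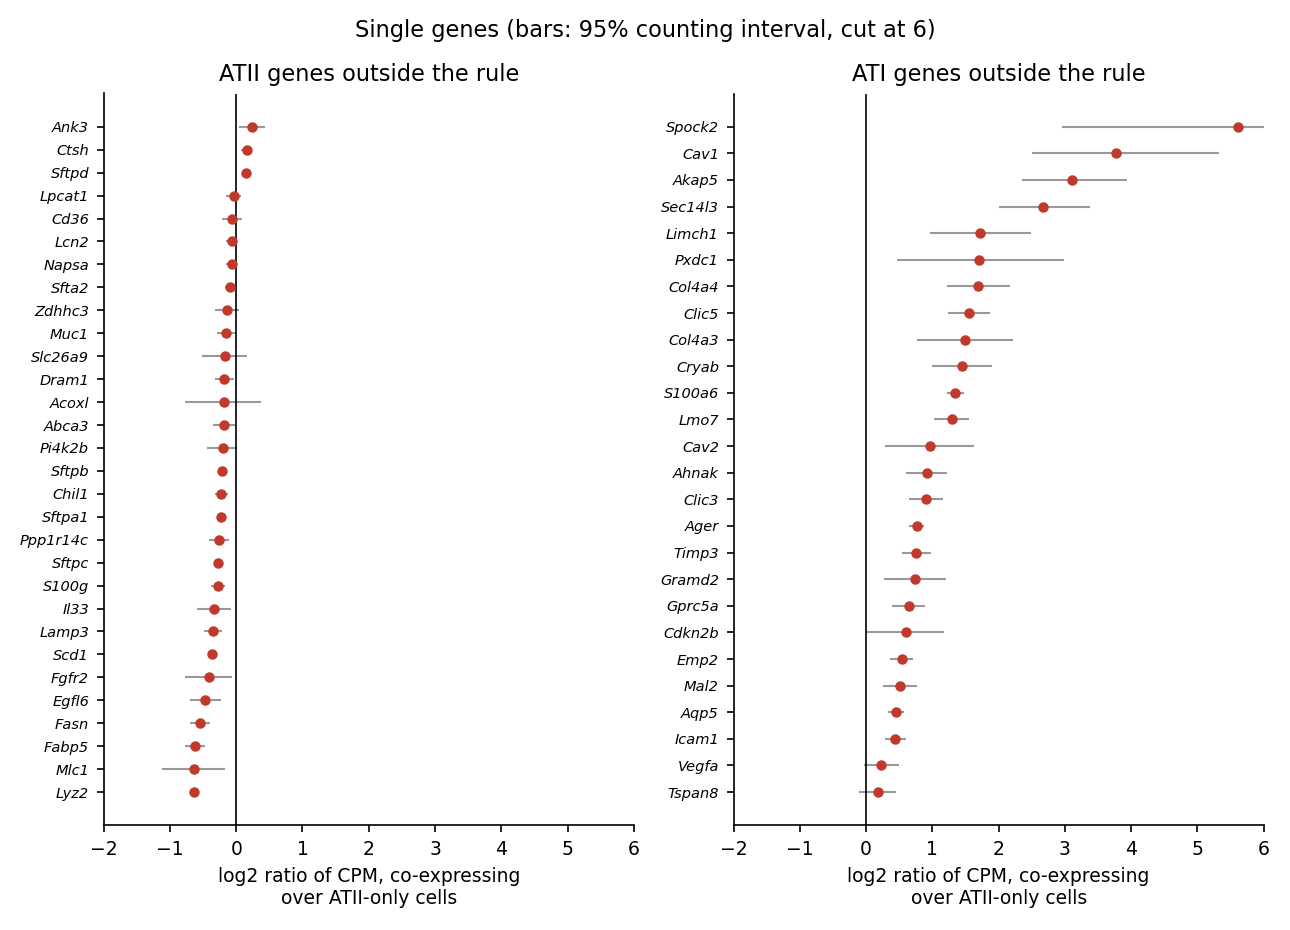
The log2 ratio of CPM in co-expressing over ATII-only cells for the 30 ATII genes (left) and the 26 ATI genes (right) past the limit of 20 CPM. Points are ratios without an added constant and bars are 95% counting intervals, cut at 6. The ATII genes lie between -0.63 and 0.23, and the ATI genes lie between 0.17 and 5.61.

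Hopx-only cells gave the other end of the scale, after cells of other lineages had been taken out of them. Of the 243, 51 had at least 3 myeloid UMIs and 21 at least 3 airway UMIs in spite of the epithelial gate, and the 183 cells without either are used from here on as the Hopx-only reference, a choice made after the data were seen. They held 24392 CPM of the ATI list and 43879 CPM of the ATII list. The other groups were not filtered in this way. At least 3 myeloid UMIs were present in 4 co-expressing and 16 ATII-only cells, and at least 3 airway UMIs in 5 and 14, all of them kept. Relative to this reference, co-expressing cells were at least 2-fold lower in 19 of 26 ATI genes and at least 2-fold higher in 24 of 30 ATII genes, against a background of 4.05% and 5.62% of 5409 genes. The median log2 ratios were -1.44 and 1.81, beside -0.09 over all genes. Against all 243 Hopx-only cells the counts were 13 lower ATI genes and 28 higher ATII genes, with backgrounds of 6.77% and 5.18%, and the medians were -0.96 and 2.15, beside -0.12 over all genes.

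On the ATI and ATII lists, co-expressing cells lay between the groups with 1 program, near the ATII-only end. Placing each gene on a linear scale from its ATII-only CPM (0%) to its CPM in the Hopx-only reference (100%), for genes at least 2-fold apart between those groups, the median position of co-expressing cells was 19.0% for 22 ATI genes and 21.7% for 25 ATII genes. All 22 ATI genes and 24 of the 25 ATII genes lay between the ends. The genes were picked for lying far apart in the end groups, and the share between the ends was not taken over all genes. These counts therefore describe the lists only. Summed ATI genes gave a position of 13.4%, or 11.8% when every cell counted equally.

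No co-expressing cell reached the ATI level of the median cell of the Hopx-only reference. The ATI list ranged from 735 over a median of 6155 to 19361 CPM in co-expressing cells, from 0 over 3303 to 32401 CPM in ATII-only cells and from 1657 over 22663 to 84738 CPM in the Hopx-only reference. The 735 CPM was that of the 1 cell rich in Scgb1a1, described below. Of the 107 co-expressing cells, 88 (82.2%, 73.7 to 89.0) lay above the ATII-only median and 50 (46.7%, 37.0 to 56.6) above the ATII-only 90th percentile of 6336 CPM, and 0 of 107 (0 to 3.39%) reached the median of the Hopx-only reference, against 1 of 469 ATII-only cells. In the depth band 40 of 71 cells (56.3%, 44.0 to 68.1) lay above the 90th percentile of ATII-only cells of the band, and 0 of 71 reached the reference median of the band. The count of ATI list genes with a UMI went the same way, at a median of 11 (range 3 to 28) in co-expressing and 8 (0 to 19) in ATII-only cells, and at 11 and 8 again within the band.

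**Figure D4:**
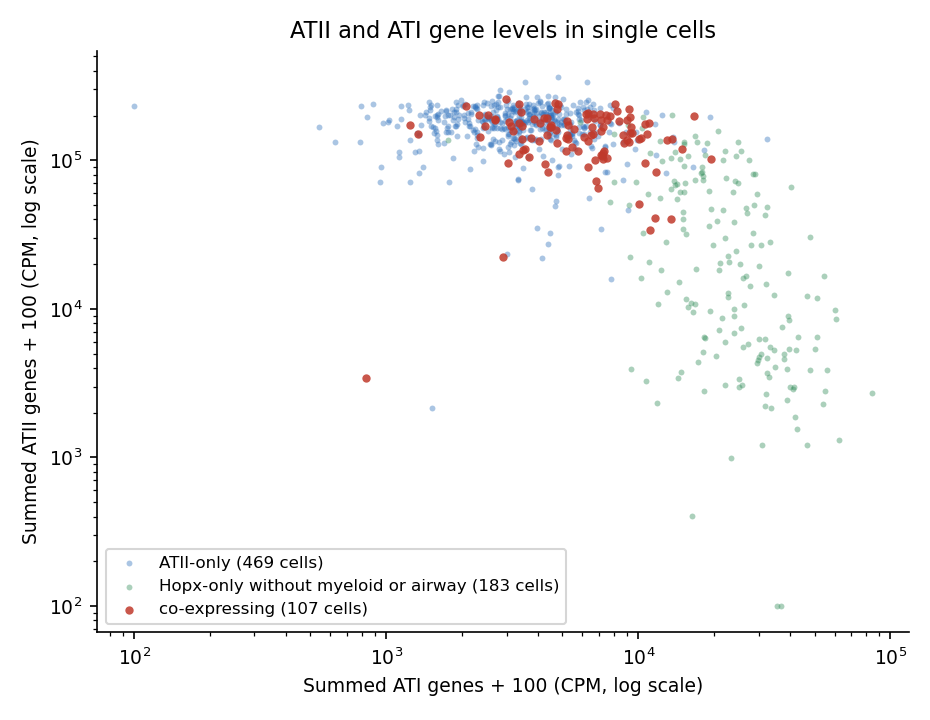
Summed ATII genes against summed ATI genes in single cells, in CPM with 100 added and on log axes, for 469 ATII-only cells, 107 co-expressing cells and the 183 Hopx-only cells without myeloid or airway UMIs. Co-expressing cells overlie the right side of the ATII-only cells, and none lies at or above the reference median of 22663 CPM on the ATI axis.

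ATI levels were highest in the co-expressing cells with the most Hopx UMIs. Summed ATI genes were at 3713 CPM in ATII-only cells, 5133 CPM (4910.3 to 5364) in the 63 cells with 1 Hopx UMI, 5068 CPM (4725 to 5430.1) in the 16 with 2, 6889 CPM (6444 to 7357) in the 14 with 3 to 4 and 8815 CPM (8483 to 9156) in the 14 with 5 or more. The cells with 1 and with 2 UMIs did not differ beyond their intervals, while the other steps exceeded them. The median cell gave 3303, 4655, 6176, 6717 and 9234 CPM. Clic5 was at 64.0, 101, 157, 162 and 328 CPM, and Ager was at 627, 956, 1015, 881 and 1315 CPM. The ATII sum had no such order, at 178083, 141742, 161840.4, 129875 and 159441 CPM. The cells with 5 or more Hopx UMIs were also the deepest, with a median of 23716 UMIs against 5146 in those with 1. Per UMI, the share of Hopx in a cell and its ATI level had a Spearman correlation of 0.39 over the 107 cells and 0.33 over the 71 of the depth band, while depth and ATI level had 0.01 and 0.04. These points share their libraries. The cell's UMI total divides both values of the first correlation, and in the second it is 1 value and the divisor of the other.

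**Figure D5:**
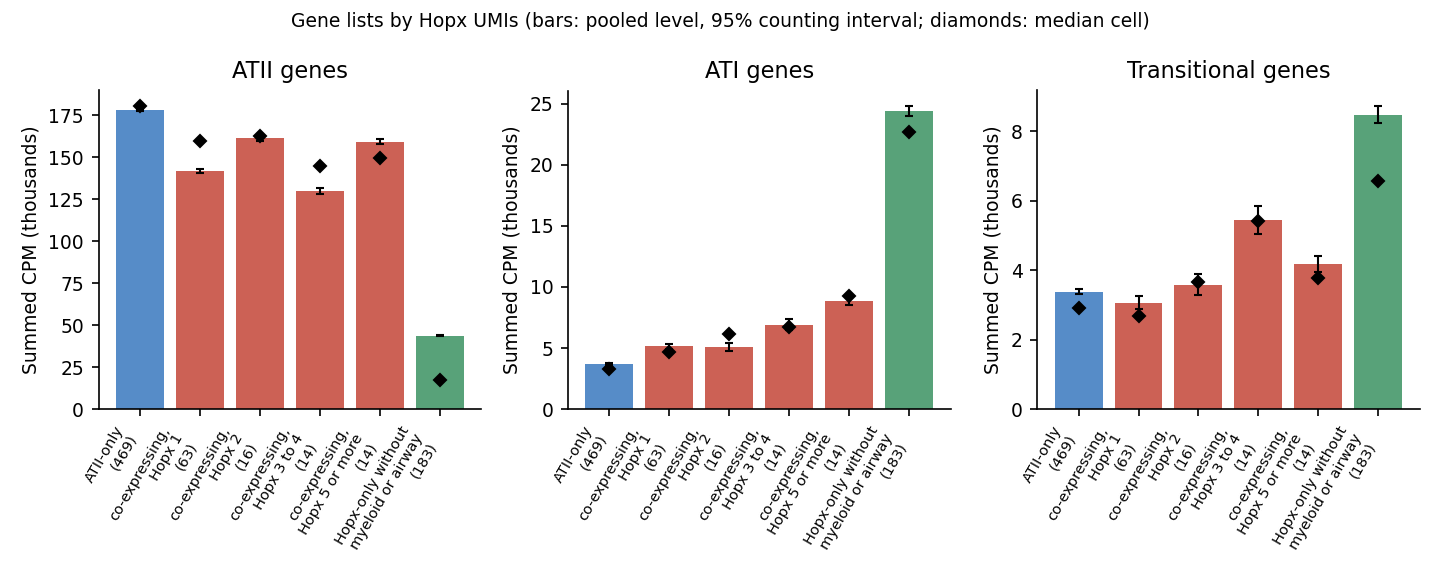
Summed CPM (in units of 1000 CPM, linear axis from 0) of ATII, ATI and transitional genes in ATII-only cells (blue), in co-expressing cells by Hopx UMIs (red) and in Hopx-only cells without myeloid or airway UMIs (green), with the number of cells in brackets. Bars are pooled levels with 95% counting intervals and diamonds the median cell; the ATI level is lowest in ATII-only cells (3713 CPM) and is 8815 CPM in cells with 5 or more Hopx UMIs.

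A small subset of co-expressing cells was both high in ATI and low in ATII genes. Taking the ATII-only 90th percentile of the ATI list and the 10th percentile of the ATII list (114347 CPM) as limits, 15 of 107 co-expressing cells (14.02%, 8.06 to 22.1) passed both, as did 12 of 469 ATII-only cells (2.56%, 1.33 to 4.43) and 166 of 183 cells of the Hopx-only reference (90.7%, 85.5 to 94.5). In the depth band the numbers were 15 of 71 (21.1%, 12.3 to 32.4) and 8 of 339 (2.36%, 1.02 to 4.60), with limits taken in the band. The 15 cells chosen over all depths had a median of 5681 UMIs, 7 with 1 Hopx UMI and 8 with more. Their transitional sum was 6069 CPM (5627 to 6537) against 3506 CPM (3382 to 3633) in the other 92 cells, and their lipid gene sum 6486 CPM (6029 to 6969) against 13225 CPM. Both differences are tied to the choice of cells by their ATI and ATII sums. Over the 107 cells the transitional sum had Spearman correlations of 0.42 with the ATI and -0.37 with the ATII sum. The lipid sum had 0.39 with the ATII sum. All 15 had TdTomato UMIs and 0 were called by Scrublet. Beyond this subset, 33 of 107 co-expressing cells (30.8%, 22.3 to 40.5) had ATII sums at or above the ATII-only median.

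Genes of the transitional state, the keratin-rich intermediate between ATII and ATI cells, were less changed than ATI genes. The 29 genes listed summed to 3807 CPM (3686 to 3931) against 3371 CPM (3299.9 to 3444) in ATII-only cells. Of 25 past the limit, 2 were at least 2-fold higher and 0 lower (background 0.555% and 0.0924%), 19 lay above 0, and the median log2 ratio was 0.26, beside 0.03 over all genes. Within the depth band the median was 0.23 with 19 of 25 above 0. The median varied with the setting. After thinning to 2000 UMIs and gating anew, which left 34 co-expressing cells, it was 0.034, under the 0.041 over all genes. Of 22 transitional genes then past the limit, 12 lay above 0, 2 were at least 2-fold higher and 2 lower. Over all 5307 genes compared after thinning, 390 were at least 2-fold higher and 503 lower. With at least 3 Hopx UMIs the median was 0.62. The 2 genes that were higher over all cells were Cldn4, a tight junction claudin (17.4 against 2.78 CPM, from 17 UMIs), and Itgb6. Itgb6, the epithelial integrin subunit that takes part in TGF-beta activation, was at 29.6 against 6.76 CPM, from 29 UMIs. Keratins were moderately higher, with Krt7 at a log2 ratio of 0.78 (0.50 to 1.06; 1.29 in the depth band) and Krt19 at 0.51 (0.24 to 0.78). Clu, which encodes clusterin, had 0.50 and Cdkn1a, the cell cycle inhibitor p21, 0.28. Nupr1, a stress-induced nuclear protein, was lower at -0.59 (-0.77 to -0.42), and Areg, the EGF receptor ligand amphiregulin, was at -0.10 over all cells and 0.26 in the band. Over the 107 cells the transitional and ATI sums had a Spearman correlation of 0.42 (0.40 in the band, 0.18 over ATII-only cells), and the transitional and ATII sums of -0.37 (-0.45 and -0.30). CPM sums of 1 cell share a divisor, and no test was made of these values.

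Lipid synthesis genes, which supply surfactant, were lower in co-expressing cells. The 16 genes listed summed to 12433 CPM (12213 to 12656) against 15743 CPM (15588 to 15899), a log2 ratio of -0.34, and 12 of 13 past the limit had ratios below 0. None of the 13 was at least 2-fold higher or lower with the added constant (background 0.555% and 0.0924%), and the median was -0.31 beside 0.03 over all genes. Cells of the depth band gave sums of 11147 and 16499 CPM and a median of -0.57, and 1 of 13 genes was at least 2-fold lower. The number lower over all 5449 genes of the band is given with the processing below. Srebf1, the transcription factor that drives fatty acid synthesis, was at 72.5 against 148 CPM, a ratio of -1.03 (-1.41 to -0.66), and at -1.20 in the band. Scd1, a desaturase, had -0.37, Elovl1, a fatty acid elongase, -0.31, Plin2, which coats lipid droplets, -0.45, and Insig1, a regulator of sterol synthesis, -0.56. Acaca, the acetyl-CoA carboxylase, was the exception at 0.02 (-0.41 to 0.44).

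Transcription factors of the alveolar lineages were compared next, since C/EBP factors are named in the title of the study. Of 29 listed, 26 passed the limit, 0 were 2-fold changed in either direction and the median log2 ratio was 0.03, as over all genes. With a background of 0.555% higher and 0.0924% lower, a count of 0 does not set this list apart. Cebpa (chromosome 7, 35119293 to 35121928, plus strand), the C/EBP factor of mature ATII cells, was at 129.7 CPM (108 to 154) in co-expressing, 178 CPM (162 to 196) in ATII-only and 43.1 CPM in the Hopx-only reference, a log2 ratio to ATII-only cells of -0.46 (-0.76 to -0.17). It was detected in 47.7% against 56.1% of cells, with 0.766% of B cells as background. After thinning the shares were 18.9% (11.9 to 27.6) against 30.4% (26.2 to 34.9), with overlapping intervals, and 0.388% of B cells. The factors Cebpb and Cebpd had ratios of 0.20 and -0.09 with intervals that included 0. Nkx2-1, the lung lineage factor, had -0.04 (-0.28 to 0.20). Elf5 and Ehf, ETS factors of secretory epithelium, were lower at -0.60 and -0.62, while Id3, an inhibitor of helix-loop-helix factors, and Wwtr1, which encodes the Hippo pathway effector TAZ, were higher at 0.96 (0.49 to 1.43) and 0.81 (0.29 to 1.33). In the depth band these were -0.40, -0.43, 0.51 and 0.26, each with an interval that included 0. Sox9, of the distal lung progenitors, had 3 UMIs in co-expressing cells, at 3.06 CPM against 18.7 CPM, and was not among the 26 counted.

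Genes with the largest and smallest ratios were then taken from the whole table, whether on a list or not. Among the 8 with the highest ratio to ATII-only cells were Akap5, Cav1, Sec14l3, Cavin2 and Ndnf. Ndnf, a secreted factor, was at 107 CPM against 28.2 CPM in ATII-only cells and 509.8 CPM in the Hopx-only reference, while Scgb1a1, Scgb3a2 and Lyz1, the other genes of this 8, each rested on 1 cell. A single cell with 27215 UMIs held 20203 Scgb1a1 UMIs, the secretory protein of club cells, which is 74.2% of its UMIs. It also held 554 Scgb3a2 UMIs, 0 Sftpc UMIs, 0 TdTomato UMIs and 1 Hopx UMI, so its content went against an ATII identity. A second cell held 683 Lyz1 UMIs. Without the first of them the ATI count stayed at 11 of 26 with a median of 0.83, and the ATII sum had a log2 ratio of -0.22. Sparcl1, among the genes higher than in both groups, rested on 3 cells with 16, 31 and 44 endothelial UMIs, which held 6, 14 and 27 of its UMIs. The lowest ratios to ATII-only cells included the macrophage genes Chil3, Ccl6 and Apoe, and Srebf1. Those highest over all 243 Hopx-only cells included Lcn2, Scd1, Lamp3 and Dlk1. Dlk1, a Notch-family ligand, was at 340.1 CPM against 635 CPM in ATII-only cells, so that it too lay below the ATII-only level.

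The Cre reporter placed the co-expressing cells with the recombined epithelium. TdTomato was found in 106 of 107 cells at 5800 CPM (5650 to 5953), against 5624 CPM in ATII-only cells, a log2 ratio of 0.04 (0.00 to 0.09), and 6169 CPM in the Hopx-only reference. B cells had 250 CPM and endothelial cells 240 CPM as a background, while alveolar macrophages had 2265 CPM. GFP, which the trapped Lkb1 allele expresses, had 27 UMIs in 18 cells, at 27.6 CPM (18.2 to 40.1) against 25.8 CPM, with a log2 ratio of 0.09 (-0.61 to 0.76). Stk11 (chromosome 10, 80115803 to 80130682, plus strand) was at 35.8 CPM (24.9 to 49.7) from 35 UMIs against 19.9 CPM (14.8 to 26.2), a log2 ratio of 0.85 (0.18 to 1.499). In the depth band that ratio was 0.43 (-0.82 to 1.53), so a difference was not detectable there at this depth. Neither gene was used to assign a cell to Restored or Non-Restored mice.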

How the data were processed

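Viable cells sorted from dissected lung tumors of 4 mice were profiled by 10x 3′ v3 single-cell RNA-seq. Per the file headers the authors made the deposited UMI counts with Cell Ranger 3.0.2 on mm10 extended by GFP and TdTomato. The values are raw counts in 1 joined matrix, in which cells carry a number and no mouse, so all cells were handled as 1 sample and no test was run. A further allele that all mice share is not reported here. Depth in cells ran from at least 500 UMIs upward.

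From these counts, cells were gated on raw UMIs as described and summed per group in Python 3.11.15 (numpy 2.4.6, scipy 1.17.1, pandas 2.3.3). Genes with a mean of at least 20 CPM over co-expressing, ATII-only and Hopx-only cells were compared, and a gene counted as 2-fold different on log2 ratios with 10 CPM added. Intervals are at the 95% level. Thinning drew 2000 UMIs per cell and left out shallower cells. Shares of cells with a UMI kept the groups set before thinning, with 106 co-expressing and 450 ATII-only cells. Thinned counts, medians and sums of genes and lists used groups gated anew on the thinned UMIs, with 34 co-expressing and 392 ATII-only cells. Cells that lost their Hopx UMIs in thinning can be among those 392. Doublets were called with Scrublet in scanpy 1.11.5 at an assumed rate of 6% and left in. Gene names and positions follow GENCODE vM21. The ratio and interval code was tested on simulated data.

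Genes named were the members of the fixed lists, with those of the largest and smallest ratios past the limit, 8 in each direction against each group and the leading genes over or under both. The members and lists were chosen with earlier results of these data known. Alternatives covered the Hopx, ATII and epithelial thresholds, doublet and lineage filters, depth, weighting, the added constant, the limit on low genes and the fold. Leaving out the cells above 15000 UMIs, leaving out the cell richest in Scgb1a1 and taking myeloid and airway cells out of the Hopx-only group were added after seeing the data.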

Additional observations from a re-analysis of the deposited data

How the results depend on the processing

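No paired analysis was possible because cells map to no mouse or replicate, and for the same reason no replicate could be left out. Of 318 alternative values for 19 results, 229 stayed within the counting interval or 1.5 times the count, 88 moved beyond it and 1 reversed. Over their alternatives the medians of the lists, the summed lists and Cebpa kept their direction, with the ATI median to ATII-only cells between 0.50 and 1.05, the ATII median between -0.29 and -0.16, and Cebpa between -0.80 and -0.27. The transitional median to ATII-only cells ranged from 0.034, its value after thinning and under the all-gene median of 0.041, to 0.62. The values that moved follow by setting, as log2 ratios unless said otherwise; the cause of each shift was not tested. With 3000 to 8000 UMIs per cell, the depth ratio to ATII-only cells reversed to 0.985 and that to Hopx-only cells was 1.12; 48 and 583 genes were lower than in ATII-only and Hopx-only cells; the ATI sum was 0.86 and -1.25, the ATI median to Hopx-only cells -0.45 and the ATII sum -0.28. With at least 2 Hopx UMIs, the share was 4.77%, depth ratios 1.35 and 2.50, genes higher and lower than in ATII-only cells 51 and 14, the ATI sum 0.99 and -1.59, the ATII sum -0.21, TdTomato 0.20 and the transitional median to Hopx-only cells -0.76. With at least 3, these were 3.23%, 1.94 and 3.84, 89 and 28, 1.15 and -1.65, -0.24, 0.30 and -0.52, and the ATI median to Hopx-only cells was -1.50. Thinned, the share was 3.89%, genes higher and lower were 390 and 503 against ATII-only and 529 and 869 against Hopx-only cells, the ATII sum -0.062, TdTomato 0.39, and against Hopx-only cells the ATI sum was -1.55, the ATI median -1.36 and the transitional median -0.74. Equal weight per cell gave 14 lower genes, ATI sums of 0.72 and -1.73, an ATI median to Hopx-only cells of -1.37 and an ATII sum of -0.22. Without cells holding any UMI of another lineage, genes were 75 and 50, ATI sums 0.92 and -1.86, the ATI median to Hopx-only cells -1.45, the ATII sum -0.29 and Cebpa -0.80. Without cells above the 98th percentile of genes, 35 were lower, ATI sums were 0.71 and -1.65, the ATII sum -0.32 and TdTomato -0.017. Without cells above 15000 UMIs, 23 were lower, ATI sums were 0.75 and -1.56 and the ATII sum -0.20. The ATII sum was -0.22 without the Scgb1a1 cell, -0.23 without Sftpc, -0.28 with an ATII sum of at least 10 UMIs and -0.27 with an epithelial sum of at least 5, where the ATI sum to Hopx-only cells was -1.56. Without Scrublet calls 3 genes were lower than in ATII-only cells. With Hopx-only cells free of myeloid and airway UMIs, the depth ratio was 2.32, 227 genes were lower, the ATI sum and median were -1.91 and -1.44 and the ATII median 1.81. A constant of 1 CPM gave 86 and 39 genes and an ATII median to Hopx-only cells of 2.59; one of 50 CPM gave 7 and 1, with 95 and 180 against Hopx-only cells and medians of 1.79 (ATII) and -0.74 (transitional). A limit of 50 CPM gave 18 higher than in ATII-only cells and 159 and 158 against Hopx-only cells, no limit gave 9 and 914 lower, and a 3-fold change gave 8 and 2, and 113 and 168. Depth limits low genes: 1 UMI over all co-expressing cells is about 1.02 CPM.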

Other observations

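Stress and signalling genes were set beside the programs above, as values with no explanation. Of the p53 target genes that arrest or kill damaged cells, 8 of 11 past the limit lay above their ATII-only level, with a median log2 ratio of 0.27 beside 0.03 over all genes, and the list summed to 1029.6 CPM (967 to 1095) against 845 CPM (809.6 to 882) in ATII-only and 1586 CPM in Hopx-only cells free of myeloid and airway UMIs. Phlda3 and Plk2 were at 0.62 each and Sesn2 at -0.58. Feedback genes of the MAPK pathway summed to 1469 CPM against 1314 CPM, with 4 of 11 above 0 and a median of -0.04, and Phlda1 had 0.43 (0.29 to 0.57). Immediate early genes, which dissociation also induces, were slightly lower at 8538 against 9148 CPM, with 6 of 16 above 0 and a median of -0.08. MHC class II genes, which ATII cells express, were at 5494 CPM (5349 to 5643) against 5339 CPM (5249 to 5430), and at 2767 CPM in the same Hopx-only cells. Genes of the LKB1 pathway had 5 of 11 past the limit, with a median of -0.02. Cell cycle genes were low, at 196 CPM (169 to 226) against 211 CPM (193 to 229), with 3 of 19 past the limit.

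Lists of other lineages were low in most co-expressing cells. Endothelial genes summed to 98.1 CPM against 22.3 CPM in ATII-only cells but were seen in 8 of 107 and 37 of 469 cells. Stromal genes gave 77.6 against 124 CPM, with UMIs in 2 cells, 57 of them Mgp in 1 cell. Alveolar macrophage genes gave 18.4 against 83.5 CPM, other myeloid genes 41.9 against 83.5 CPM, neutrophil genes 84.8 against 31.0 CPM and lymphoid genes 39.8 against 32.2 CPM, in 15, 24, 22 and 25 of the 107 cells. Airway genes gave 21308 against 3029 CPM, with UMIs in 21 cells, but most of the 21308 CPM came from the 1 cell with 20203 Scgb1a1 UMIs. With each cell weighted equally the values were 7240 and 1476 CPM, and the median cell of either group had 0. Erythroid genes had no UMI in either group.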
